A study of Homo sapiens with 4 samples.

Results

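The genes of the nuclear pore complex were followed in CAPAN2 cells, a human pancreatic ductal adenocarcinoma line, with and without lentiviral shRNAs against the polarity gene LLGL1. A gene was taken as a member when its annotated symbol was a numbered NUP name (with or without the endings CL, L1, L2 or P1) or 1 of 10 further pore symbols (AAAS, SEH1L, RAE1, TPR, NDC1, POM121, SEC13, RANBP2, AHCTF1 and GLE1). This gave 33 genes of the 19775 measured, and each was read from the brightest of its probe sets over all arrays. The rule used names and mean brightness and no difference between the groups, but it was chosen with earlier results of these data known. Of the 33 genes, 24 had several probe sets and 9 had a single one. NUP210P1, a transcribed pseudogene, and NUP62CL, a gene related to NUP62, met the naming rule without being established parts of the pore.

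The nuclear pore complex is the channel through which proteins and RNA cross the nuclear envelope. Its scaffold consists of a Y-shaped subcomplex, stacked in rings on both faces of the envelope, and an inner ring between them, which membrane proteins tie to the envelope. Nucleoporins rich in phenylalanine-glycine repeats fill the channel, filaments reach into the cytoplasm, and a basket reaches into the nucleus. Importins and exportins carry cargo through the repeats, with direction set by the small GTPase Ran. Pores are assembled into the growing nuclear envelope in interphase and are taken apart and rebuilt around mitosis, so dividing cells must make new pore proteins in each cycle.

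The study set 2 arrays of CAPAN2 cells transduced with lentivirus carrying shRNAs against LLGL1 beside 2 arrays of CAPAN2 cells transduced with control lentivirus, described as control shRNAs in the design text. The sample titles name these groups siLLGL1-2 and NC-2, so they do not use the shRNA wording of the other labels. Both groups were grown in DMEM with 10% serum and antibiotics and transduced overnight in 8 µg/ml hexadimethrine bromide, an agent that aids viral uptake. The number of shRNA sequences, any drug selection and the time from transduction to RNA are not stated in the labels, and a single cell line was used. The values are log2 signals of an Affymetrix 3′ expression array, and the labels call the arrays of a group biological replicates without saying whether they came from separate cultures. The p-values therefore cover only the spread among these 4 arrays, which may be technical.

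The arrays were alike in scale, with medians of 2.95 to 2.98 in log2 signal. LLGL1 itself, in the brightest of its 3 probe sets, read 6.73 and 6.71 on the arrays labelled LLGL1 shRNA, against 6.83 and 6.86 on the control arrays, a difference of -0.12 (95% interval -0.27 to 0.02) that did not pass (limma adjusted p = 0.22), although both arrays lay below both control arrays. The other LLGL1 probe sets differed by 0.09 and 0.06 and overlapped. A fall of the LLGL1 transcript was thus not established, and every direction below is that between arrays as labelled. The 8 epithelial and ductal markers averaged 9.36 and 9.38 on the arrays labelled LLGL1 shRNA and 9.38 on each control array, but 6 of the 8 had negative differences (median -0.16), 5 lay wholly below the control arrays, 1 was called higher and 2 lower. The 6 fibroblast markers averaged 2.73 to 2.89 against 2.77 to 2.80. The 3 measured immune markers averaged 2.56 to 2.67 against 2.58 to 2.69, and the 5 endothelial markers 2.58 to 2.66 against 2.57 to 2.60. None of the fibroblast, immune or endothelial markers passed the test. The called epithelial markers, named after their values were seen, were the keratin KRT7 (log2 difference 1.62, and 0.44 averaged over its 4 probe sets), the keratin KRT19 (-0.61) and the adherens-junction gene CDH1 (-0.47). Averaged over its 2 probe sets CDH1 did not pass (-0.55, limma adjusted p = 0.0643). The part of these marker differences in the nuclear pore values was not tested.

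Most nuclear pore genes read slightly higher on the arrays labelled LLGL1 shRNA, and few of these differences passed the test. At a limma adjusted p below 0.05 over all genes, 4 of the 33 were called, where 6.28% of all genes were. Of these, 3 of the 33 were higher (9.09%), namely NUP160, NUP98 and AAAS, where 3.21% of all genes were higher. In the other direction 1 of the 33, NUP58, was lower (3.03%), beside 3.07% of all genes. The signals of the groups did not overlap for 23 members: 21 of the 33 had both arrays labelled LLGL1 shRNA above both control arrays, where 27.7% of all genes did, and 2, NUP58 and RANBP2, had them below, where 24.7% of all genes did. The median log2 difference was 0.16 over the 33 members and 0.01 over all genes. It depended on the use of the brightest probe set. With each gene averaged over its probe sets the median was 0.10 for members and 0.01 for all genes. With each probe set taken on its own it was 0.07 over 80 member probe sets, of which 48 were positive, and 0 over all probe sets. Since nuclear pore genes are brighter than most, the same counts were taken where the mean signal over the arrays reached 5 on the log2 scale. In the fit over all genes, 2 of the 30 members this bright were called higher (6.67%) and 1 lower (3.33%). Of the 8379 genes of that brightness, 5.25% were higher and 5.92% lower. AAAS, with a mean of 4.95, was not among the 30. In a fit of these brighter genes alone, 16 of the 30 were higher and 1 lower, beside 22.2% and 24.8% of genes. Of the same 30, 20 lay wholly above the control arrays and 2 wholly below, beside 36.5% and 38.2% of those genes. In bulk RNA, more cells in a state that makes more of a transcript and more transcript in each cell cannot be told apart.

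**Figure D1:**
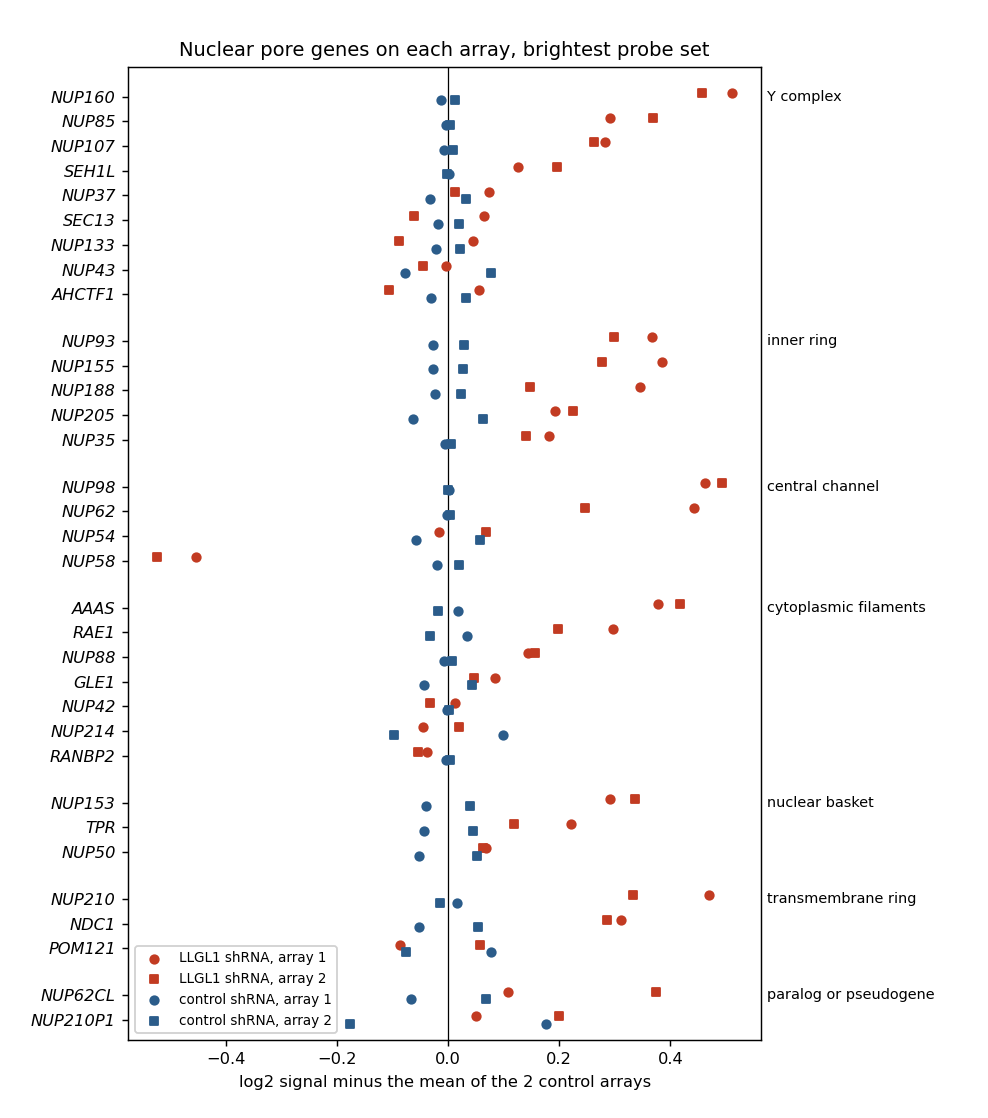
Log2 signal of each nuclear pore gene on each array (horizontal axis, minus the mean of the 2 control arrays), brightest probe set, grouped by place in the pore. Red points are the arrays labelled LLGL1 shRNA and blue points the control arrays; 21 genes have both red points to the right of both blue points, all 5 inner ring genes among them, and NUP58 lies farthest to the left.

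NUP160, a scaffold protein of the Y complex, rose. Its signal was 7.17 and 7.11 on the arrays labelled LLGL1 shRNA, against 6.64 and 6.67 on the control arrays. The groups did not overlap, and the difference was 0.48 on the log2 scale (1.40-fold, SE 0.0541, limma adjusted p = 0.0356). NUP98, whose transcript encodes both the repeat-bearing NUP98 and the Y-complex subunit NUP96, read 6.85 and 6.88 on the arrays labelled LLGL1 shRNA, against 6.38 on each control array. It rose by 0.48 as well (1.39-fold, SE 0.0508, adjusted p = 0.0349). AAAS, which encodes ALADIN, a protein held at the pore by the membrane nucleoporin NDC1 and mutated in triple A syndrome, read 5.13 and 5.17 on the arrays labelled LLGL1 shRNA, against 4.77 and 4.74 on the control arrays. Its rise was 0.40 (1.32-fold, SE 0.053, adjusted p = 0.0418).

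NUP58, a repeat nucleoporin that forms the channel lining with NUP62 and NUP54, fell in its brightest probe set. It read 7.32 and 7.25 on the arrays labelled LLGL1 shRNA, against 7.75 and 7.79 on the control arrays, a log2 difference of -0.49 (1.40-fold lower, SE 0.0573, limma adjusted p = 0.0365). The next brightest NUP58 probe set, at a similar signal, read 7.04 and 6.98 against 6.98 and 7.07, and differed by -0.01. Averaged over its 4 probe sets, NUP58 differed by -0.18 without passing (adjusted p = 0.185). The fall of NUP58 is thus a measurement of 1 probe set, and the other 3 overlapped between the groups.

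The calls of these 4 genes sat close to the threshold. With each probe set tested on its own over 41091 probe sets the adjusted p was 0.0549 for NUP160, 0.0543 for NUP98, 0.0628 for AAAS and 0.0566 for NUP58. When each gene was averaged over its probe sets the 3 rises passed and NUP58 did not, beside 3.16% of genes higher and 2.96% lower. With arrays centred on their medians, NUP210 joined the rises, giving 4 higher members (4.28% of all genes) and 1 lower (4.71%). Other settings placed more members past the threshold: 14 of 33 were higher with trend and robust moderation (9.87% of all genes), 16 of 30 when dim genes, below a mean of 5, were left out (22.2%) and 11 of 33 after cyclic loess scaling (6.13%). NUP58 was the single lower member in each of these 3 fits, where 10.0%, 24.8% and 4.57% of genes were lower. With any 1 array left out the log2 differences ran from 0.46 to 0.51 for NUP160, 0.46 to 0.49 for NUP98, 0.38 to 0.42 for AAAS and -0.52 to -0.45 for NUP58. Since the groups of these genes do not overlap, their signs could not turn in these fits.

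**Figure D2:**
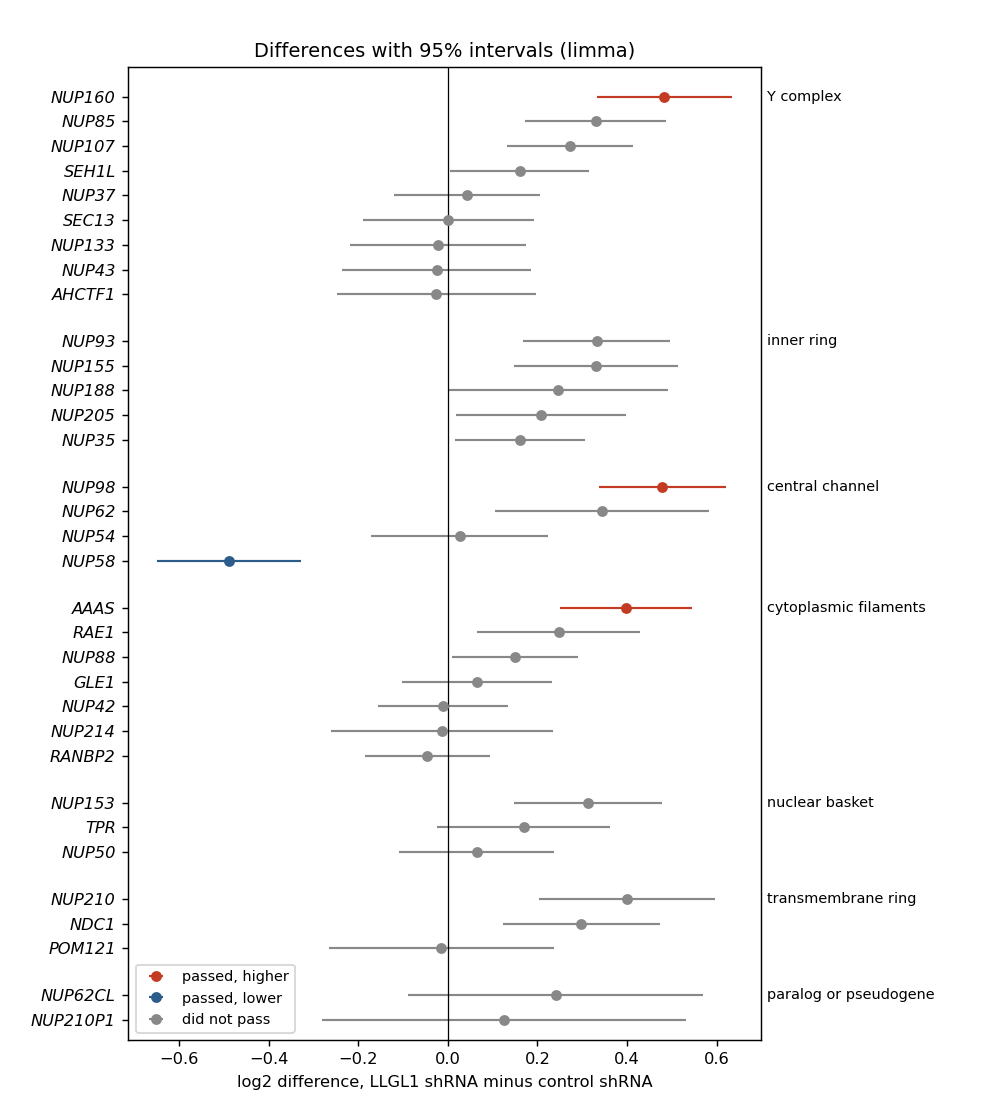
Log2 difference of each nuclear pore gene, LLGL1 shRNA minus control shRNA, with limma's 95% interval as the bar, brightest probe set of each gene, 2 arrays a group. Red marks the 3 genes that passed and were higher, blue the 1 that passed and was lower, grey the 29 that did not pass.

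Within the Y complex, which builds the outer rings and also binds chromatin and kinetochores, 4 of the 9 members lay wholly above the control arrays (44.4%, beside 27.7% of all genes and 36.5% of those with a mean of 5 or more). These were NUP160, NUP85, NUP107 and SEH1L, while AHCTF1, NUP43, NUP133, SEC13 and NUP37 overlapped with the control arrays. Second probe sets of SEH1L and AHCTF1 ran the opposite way, as given with the other probe sets. NUP85 read 6.86 and 6.93 on the arrays labelled LLGL1 shRNA, against 6.56 and 6.57 on the control arrays (log2 difference 0.33, SE 0.0567, limma adjusted p = 0.057). NUP107, which with NUP133 forms the stem of the Y, read 8.21 and 8.19 against 7.92 and 7.93 (0.27, adjusted p = 0.0623). Neither passed. NUP133 differed by -0.02 with a 95% interval of -0.22 to 0.18, and SEC13, which also serves in COPII vesicle coats, by 0.00 with an interval of -0.19 to 0.19. AHCTF1, known as ELYS, which starts pore assembly on chromatin after mitosis, read 7.34 and 7.18 on the arrays labelled LLGL1 shRNA, against 7.25 and 7.31 on the control arrays.

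All 5 members of the inner ring lay wholly above the control arrays, where 27.7% of all genes and 36.5% of those with a mean of 5 or more did, and none of them passed. NUP93, which anchors the ring and recruits the channel proteins, read 7.14 and 7.07 on the arrays labelled LLGL1 shRNA, against 6.74 and 6.80 on the control arrays (log2 difference 0.33, SE 0.0587, limma adjusted p = 0.0592). NUP155, which bridges the ring and the membrane, read 6.94 and 6.83 against 6.52 and 6.58 (0.33, adjusted p = 0.0685). The large scaffold proteins NUP188 and NUP205 differed by 0.25 and 0.21, and NUP35, the small subunit that bends membrane, by 0.16. Unadjusted p-values of the 5 ran from 0.00502 for NUP93 to 0.0499 for NUP188. NUP188, the least even of the 5, read 6.13 and 5.93 on the arrays labelled LLGL1 shRNA, against 5.76 and 5.81 on the control arrays. The other probe sets of NUP93, NUP188 and NUP205 were dim, and a NUP93 set (-0.11) and a NUP188 set (-0.10) had the opposite sign. Averaged over all probe sets, NUP93 differed by 0.11 (limma adjusted p = 0.293), NUP188 by 0.08 (adjusted p = 0.546) and NUP205 by 0.19 (adjusted p = 0.12).

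Of the 4 channel genes, NUP98 and NUP62 lay wholly above the control arrays, NUP58 wholly below, and NUP54 overlapped. Of all genes 27.7% lay wholly above and 24.7% wholly below, and of those with a mean of 5 or more 36.5% and 38.2%. Beside the rise of NUP98 and the fall of NUP58, NUP62, the central repeat protein, read 7.25 and 7.06 on the arrays labelled LLGL1 shRNA, against 6.81 on each control array (log2 difference 0.34, SE 0.0854, limma adjusted p = 0.0975). NUP54, the remaining partner in the trimer of NUP62, NUP58 and NUP54, read 8.61 and 8.69 against 8.57 and 8.68, and differed by 0.03 (95% interval -0.17 to 0.22). In their brightest probe sets, the 3 genes of that trimer therefore gave a positive difference, a negative difference and one near 0. The next brightest NUP58 probe set differed by -0.01.

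Of the 7 genes of the cytoplasmic side, AAAS passed, RAE1, NUP88 and GLE1 lay wholly above the control arrays without passing, RANBP2 lay wholly below, and NUP42 and NUP214 overlapped. With AAAS, 57.1% thus lay wholly above and 14.3% wholly below, beside 27.7% and 24.7% of all genes. Of genes with a mean of 5 or more, 36.5% and 38.2% did. GLE1 was separated narrowly, with 6.673 on an array labelled LLGL1 shRNA against 6.671 on a control array. RAE1, an mRNA export factor that binds NUP98, read 8.29 and 8.19 on the arrays labelled LLGL1 shRNA, against 8.02 and 7.96 on the control arrays (log2 difference 0.25, limma adjusted p = 0.108). NUP88, the partner of NUP214, read 8.58 and 8.59 against 8.43 and 8.44 (0.15, adjusted p = 0.159). GLE1 and NUP42, which together stimulate the mRNA export helicase DDX19, differed by 0.07 and -0.01. RANBP2, the filament protein that also acts as a SUMO ligase, read 8.63 and 8.61 against 8.66 and 8.67, a gap of -0.05 whose 95% interval ran from -0.19 to 0.09.

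The 3 basket genes lay wholly above the control arrays, beside 36.5% of genes with a mean of 5 or more, and did not pass. NUP153, which docks import and export complexes on the nuclear side, read 8.29 and 8.34 on the arrays labelled LLGL1 shRNA, against 7.96 and 8.04 on the control arrays (log2 difference 0.31, SE 0.0594, limma adjusted p = 0.0644). TPR, the coiled-coil protein that forms the basket's struts, differed by 0.17 and NUP50, a cofactor of importin-dependent import, by 0.06. Averaged over all their probe sets both turned negative, TPR to -0.16 and NUP50 to -0.13. NUP153, whose other probe sets are dim, averaged 0.18 (limma adjusted p = 0.493). Of the 3 membrane-ring genes, NUP210 read 7.69 and 7.56 on the arrays labelled LLGL1 shRNA, against 7.24 and 7.21 on the control arrays (0.40, SE 0.0702, adjusted p = 0.0588). NDC1 read 7.81 and 7.79 against 7.45 and 7.56 (0.30, adjusted p = 0.075), but its second probe set, of like brightness, read 7.55 and 7.41 against 7.32 and 7.51 and differed by 0.06. Averaged over both, NDC1 differed by 0.18 (adjusted p = 0.237). POM121, at 3.34 and 3.49 against 3.51 and 3.36, was read by a dim probe set (-0.02). A brighter probe set shared by POM121 and its paralog POM121C, left out by the rule, read 8.70 and 8.64 against 8.39 and 8.50, a difference of 0.23.

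The remaining members, NUP62CL and NUP210P1, did not pass. NUP62CL differed by 0.24 (95% interval -0.09 to 0.57), with both arrays labelled LLGL1 shRNA above both control arrays. NUP210P1 was near the bottom of the scale, with 1.52 and 1.67 against 1.65 and 1.29. Counted without adjustment, 17 of the 33 members were higher at a limma p below 0.05 and 1 was lower, where 14.5% and 13.7% of all genes were. With each gene averaged over its probe sets, 12 members were higher and 3 lower. In that fit 5161 of 19775 genes were below 0.05 in either direction.

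The probe sets of a gene often disagreed, which limits what the brightest one says about the transcript. Among 15 dimmer probe sets with a mean log2 signal of at least 5, from 10 genes, 8 had the sign of the brightest. The others came from NUP50, RANBP2, AHCTF1, NUP214 and SEH1L. The brightest sets of these genes differed by 0.06, -0.05, -0.03, -0.01 and 0.16, most of them near 0. The share of such agreement over all genes was not counted. For NUP160 all 3 probe sets lay wholly above the control arrays. The dimmer NUP160 sets read 3.73 and 3.79 on the arrays labelled LLGL1 shRNA, against 2.85 and 2.59 on the control arrays, and 2.96 and 2.99 against 2.26 and 2.57. All 3 NUP98 probe sets lay above as well, with log2 differences of 0.48, 0.22 and 0.56. For NUP210 the 3 brightest probe sets differed by 0.40, 0.41 and 0.52, each with both arrays labelled LLGL1 shRNA above both control arrays. Its dimmer sets, with means below 5, differed by 0.17 and -0.01, and the last of these overlapped. Averaged over its 5 probe sets, NUP210 differed by 0.30 without passing (limma adjusted p = 0.0577). RAE1 differed by 0.25, 0.29 and 0.10 in its probe sets. AAAS has a single probe set, so its rise has no second reading.

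Other members had probe sets that ran against each other. In NUP50 the brightest set differed by 0.06, while the next 3 differed by -0.22, -0.21 and -0.27, each wholly below the control arrays. In RANBP2 the second set read 5.97 and 5.88 on the arrays labelled LLGL1 shRNA, against 6.65 and 6.71 on the control arrays. Its log2 difference of -0.76 was the only member probe set of 80 to pass when each was tested on its own (limma adjusted p = 0.0488, beside 0.830% of all probe sets), whereas the other RANBP2 sets differed by -0.05, -0.04 and 0.25. That set carries the suffix x, which marks probes that may match other transcripts, and RANBP2 has near-identical copies in the RGPD genes. In TPR the second set read 4.06 and 3.97 against 4.70 and 4.79, a difference of -0.73 (adjusted p = 0.0518) opposite to the 0.17 of the brightest. NUP214 differed by -0.01 in its brightest set and by 0.19 and 0.57 in the dimmer ones. SEH1L differed by 0.16 and, wholly below the control arrays, by -0.04, while AHCTF1 differed by -0.03 and, wholly above, by 0.15. In NUP37 and NUP88 a dim second set (mean below 5) gave -0.14 and -0.21, which turned the average of each gene negative. Which transcript forms each set detects was not tested.

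**Figure D3:**
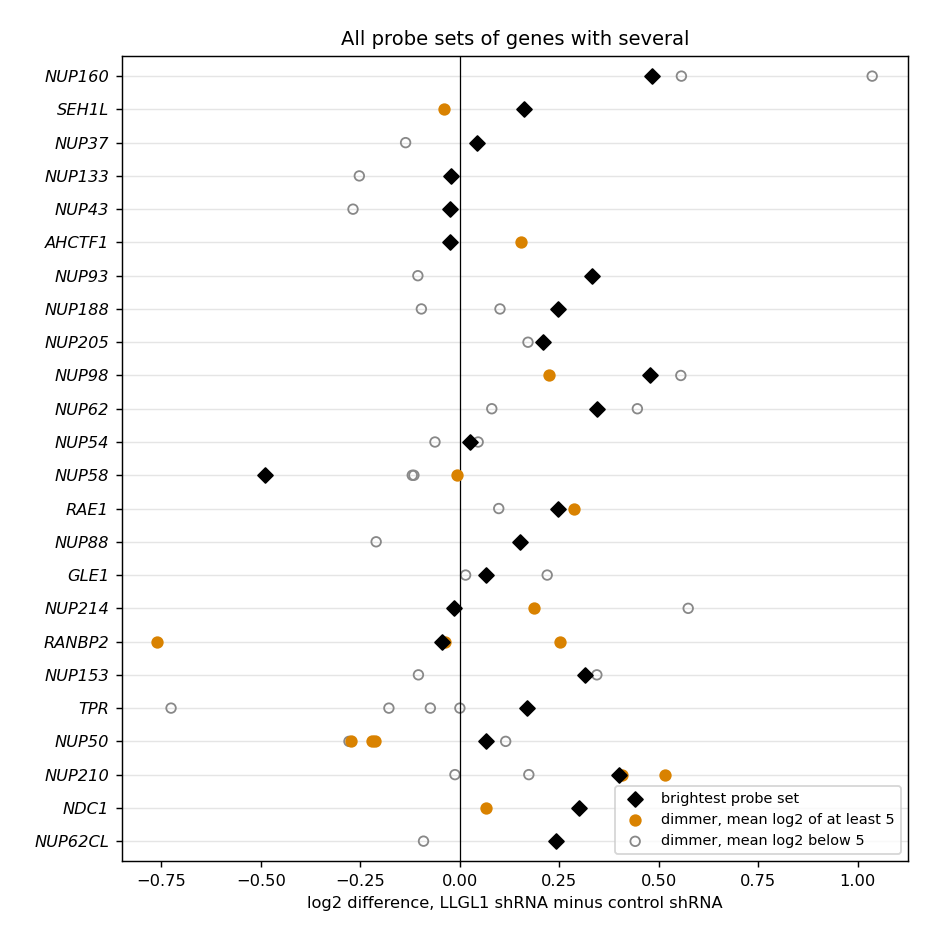
Log2 difference, LLGL1 shRNA minus control shRNA, of every probe set of the 24 nuclear pore genes with several. Diamonds are the brightest set of each gene, filled circles dimmer sets with a mean log2 signal of at least 5 and open circles those below 5; NUP160, NUP210, NUP98 and RAE1 have their brighter sets on the right of 0, while NUP50, RANBP2 and TPR have sets on both sides.

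The factors that work with the pore were read from lists of their own. These lists, and those of envelope and cell cycle genes below, were also chosen with earlier results of these data known. Of 56 measured transport factors, none was lower at a limma adjusted p below 0.05. Of the 56, 6 were higher (10.7%), beside 3.21% of all genes and 5.25% of those with a mean of 5 or more. At an unadjusted limma p below 0.05 there were 28, 23 of them higher and 5 lower, where 14.5% of all genes were higher and 13.7% lower. The median log2 difference was 0.11. All 6 measured genes of the Ran cycle lay wholly above the control arrays, where 27.7% of all genes and 36.5% of those with a mean of 5 or more did, with a median of 0.35. RANBP1, which helps release Ran from transport complexes, rose by 0.52 (SE 0.0534, adjusted p = 0.0345), while the average of its 3 probe sets did not pass (0.29, adjusted p = 0.176). The other 5 did not pass, and 4 of them were higher at an unadjusted p below 0.05, where 14.5% of all genes were.

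Among 17 importins and 7 exportins, IPO4, an importer of histones and ribosomal proteins, rose by 0.57 (SE 0.0516, adjusted p = 0.0318) and XPO6, the exportin for actin, by 0.36 (SE 0.0529, adjusted p = 0.0473). Averaged over its 2 probe sets, XPO6 did not pass (adjusted p = 0.0523), and its called set carries the suffix x, for probes that may match other transcripts. Importins lay on both sides of the control arrays, 6 wholly above and 6 wholly below (35.3% each way). Of genes with a mean of 5 or more, 36.5% lay wholly above and 38.2% wholly below, close to the importin shares. Of the 7 exportins, 5 lay wholly above (71.4%) and 0 wholly below. Of 17 mRNA export genes 10 lay wholly above (58.8%) and 1 wholly below (5.88%). Of these 17, 3 were called higher (17.6%, beside 3.21% of all genes and 5.25% of those with a mean of 5 or more). DDX39A, a helicase that loads export factors, rose by 0.72 (limma adjusted p = 0.0318). PCID2, a subunit of the TREX-2 complex that sits at the basket, rose by 0.65 (adjusted p = 0.0331). The THO subunit THOC5 rose by 0.59 (adjusted p = 0.0389). Averaged over its 2 probe sets, THOC5 differed by 0.26 without passing (adjusted p = 0.125). None of 9 other pore-associated genes passed. At an unadjusted limma p below 0.05, 2 of them were higher and 0 lower, where 14.5% of all genes were higher and 13.7% lower.

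In the nuclear lamina and envelope, on which pores are anchored, 3 of 14 genes were higher (21.4%) and 1 was lower (7.14%). Of all genes 3.21% were higher and 3.07% lower, and of those with a mean of 5 or more 5.25% and 5.92%. BANF1, which crosslinks chromatin when the envelope reforms, read 6.86 and 6.62 on the arrays labelled LLGL1 shRNA, against 5.46 and 5.52 on the control arrays (2.38-fold, SE 0.0997 on the log2 scale, limma adjusted p = 0.0295). The B-type lamins rose, LMNB1 by 0.68 (adjusted p = 0.0318) and LMNB2 by 0.55 (adjusted p = 0.0356), and the A-type lamin LMNA fell in its brightest probe set (-0.54, adjusted p = 0.0395), though not when its 6 probe sets were averaged (-0.18, adjusted p = 0.273). That LMNA set carries the suffix x as well. Cell cycle genes moved on the same arrays: 16 of 24 S-phase genes were higher (66.7%) and 1 lower (4.17%), with a median of 0.54, and 13 of 24 G2 and M genes were higher (54.2%) and none lower (median 0.40), beside 3.21% of all genes higher and 3.07% lower. Of the G2 and M genes, 19 were higher at an unadjusted limma p below 0.05, where 14.5% of all genes were. The replicative helicase subunits MCM5 and MCM2 rose by 0.99 and 0.95, the mitotic kinase AURKB by 0.87, and the lower S-phase gene was RFC5, a clamp-loader subunit (-0.51). Averaged over its 3 probe sets RFC5 did not pass (-0.18, adjusted p = 0.114). The part of cell cycle state in the nuclear pore differences was not tested.

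**Figure D4:**
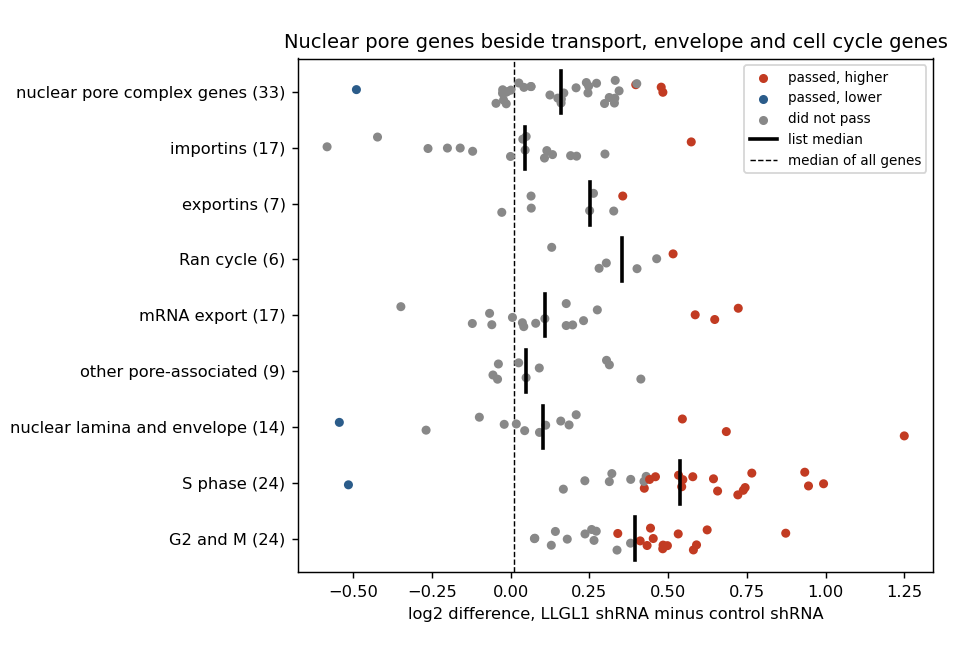
Log2 difference, LLGL1 shRNA minus control shRNA, of each nuclear pore gene and of the genes of 8 other lists (number measured in brackets), with vertical jitter only. Thick bars are list medians, 0.16 for nuclear pore genes, 0.35 for the Ran cycle, 0.54 for S phase and 0.40 for G2 and M; the dashed line is the median of all genes, 0.01.

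RefSeq promoters of GRCh38.p14, from 250 bases before to 50 bases after a transcription start, were found for 29 of the 33 members, all but AHCTF1, GLE1, NUP210P1 and NUP43. Promoters of the 4 genes that passed are shown since these genes carry the calls above. Each is written 5′ to 3′ on the gene's strand, the first listed start where there were 2, and capitals mark the searched motifs.
NUP160 (chr11:47848301-47848600, minus strand): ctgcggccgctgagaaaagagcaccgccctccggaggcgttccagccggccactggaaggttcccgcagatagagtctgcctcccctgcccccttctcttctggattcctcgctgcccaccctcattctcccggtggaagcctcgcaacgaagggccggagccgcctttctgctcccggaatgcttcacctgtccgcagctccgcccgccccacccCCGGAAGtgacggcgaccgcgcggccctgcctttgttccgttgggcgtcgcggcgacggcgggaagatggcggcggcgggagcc
NUP98 (chr11:3797497-3797796, minus strand): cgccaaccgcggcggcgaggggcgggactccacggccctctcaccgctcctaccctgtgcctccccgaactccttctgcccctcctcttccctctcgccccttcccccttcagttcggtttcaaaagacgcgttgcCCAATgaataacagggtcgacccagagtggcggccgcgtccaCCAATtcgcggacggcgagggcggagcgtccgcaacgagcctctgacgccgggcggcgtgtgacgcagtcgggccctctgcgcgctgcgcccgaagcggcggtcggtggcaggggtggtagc
AAAS (chr12:53321561-53321860, minus strand): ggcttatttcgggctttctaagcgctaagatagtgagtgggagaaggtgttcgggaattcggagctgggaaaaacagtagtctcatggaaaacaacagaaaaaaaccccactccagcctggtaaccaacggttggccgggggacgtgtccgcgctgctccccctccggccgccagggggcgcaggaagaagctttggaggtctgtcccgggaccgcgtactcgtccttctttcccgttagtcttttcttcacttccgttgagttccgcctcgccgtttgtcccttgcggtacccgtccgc
NUP58 (chr13:25301375-25301674, plus strand): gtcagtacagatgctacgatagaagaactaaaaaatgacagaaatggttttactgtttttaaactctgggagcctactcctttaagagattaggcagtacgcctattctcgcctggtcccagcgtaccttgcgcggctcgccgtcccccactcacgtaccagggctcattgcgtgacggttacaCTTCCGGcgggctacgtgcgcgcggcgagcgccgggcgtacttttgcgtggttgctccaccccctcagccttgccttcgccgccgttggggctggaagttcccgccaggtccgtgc

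The motifs were searched on both strands as exact letters: the ETS core CCGGAAG, the NF-Y core CCAAT, an NRF1-type palindrome of 10 bases and the E2F-type sites TTTCCCGC and TTTGGCGC, of which none contains another. The ETS core was present in 12 of the 29 members (41.4%), beside 12.2% of all 27305 genes with a promoter, 16.6% of those measured here and 24.9% of the measured genes whose mean log2 signal reached 5. With the first transcribed base as +1 and the base before it as -1, NUP160, which rose, had 1 copy at -34, and NUP58, which fell, had 1 copy on the opposite strand at -66. NUP98 had 2 CCAAT boxes, at -114 and -72, and AAAS had none of the 5 motifs. CCAAT was found in 12 of the 29 members (41.4%), beside 39.7% of all genes, 41.7% of measured genes and 44.2% of the brighter ones. The NRF1-type palindrome was present in 3 members, NUP107, NUP50 and NUP62 (10.3%, beside 1.52% of all genes, 2.04% of measured genes and 2.98% of the brighter ones).

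An E2F-type site of either form was found in 1 of the 29 members, NUP155 (3.45%), beside 2.75% of all genes, 3.67% of measured genes and 4.94% of the brighter ones. These are matches of letters in a 300-base window and say nothing on whether a factor binds there.

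In the authors' deposited table of 294 probe sets that differ at least 2-fold, 1 row belonged to a nuclear pore gene. It was the second brightest probe set of NUP160, for which the authors' deposited table gives a ratio of 2.05, LLGL1 over control, and an unadjusted p of 0.0159. That probe set was dim on the control arrays (2.85 and 2.59, below the array medians). The size of the ratio thus rests on a low control signal.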

How the data were processed

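Total RNA (100 ng per sample) was labelled as biotinylated cRNA with an Affymetrix 3′ IVT kit, per the labels' protocols. The authors deposited log2 signals of 54675 probe sets after RMA with Partek 6.6, both named per the submitters' processing notes, which do not describe the background step. The authors also deposited a table of p-values, ratios and a signed fold score for their comparison, per the file headers.

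Probe sets with 1 symbol in the platform annotation were kept (41091 without controls), and the brightest per gene by its mean over the 4 arrays was used, giving 19775 genes. RefSeq identifiers of all 33 members matched and changed 0 symbols. Differences were fitted over all genes with lmFit and eBayes in limma 3.58.1 (R 4.3.3), with two-sided p-values adjusted by the Benjamini-Hochberg method and called below 0.05, and the number of arrays limits the precision. The procedure was run on simulated data with independent normal values and the spread that limma assumes. That run cannot show how it does on arrays whose spread may be technical. Alternatives covered scaling, moderation, a filter, the use of dimmer probe sets, the replicate block, each array left out and a stricter threshold. The members, lists, motifs and tests were chosen with earlier results of these data known. Every member could be named, as could list genes that passed, at most the 4 largest in each direction. Protein sequences were not used here.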

Additional observations from a re-analysis of the deposited data

How the results depend on the processing

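Nuclear pore genes called higher numbered 3, against 4 with median centring, 11 with cyclic loess, 14 with trend and robust moderation, 16 of 30 at a mean log2 of at least 5, 3 with the mean of all probe sets, and 0 with each probe set on its own or an adjusted p below 0.01. Genes called lower numbered 1 except 0 with the mean of all probe sets and at 0.01. With each probe set on its own the 1 lower call was a different probe set, of RANBP2. Transport factors called higher numbered 6, against 11, 21 and 23 with cyclic loess, moderation and the filter, 4 with the mean of all probe sets, and 1 and 0 with single probe sets and at 0.01. Lower ones numbered 0, against 2 with median centring, 2 with cyclic loess, and 5 each with moderation and the filter. Over all genes 635 were higher and 607 lower, against 847 and 932 with median centring, 1212 and 903 with cyclic loess, 1951 and 1984 with moderation, 1858 and 2081 with the filter, 165 and 176 with single probe sets, and 13 and 0 at 0.01. The causes of these shifts were not tested. With the replicate block 0 genes passed in either direction in any of these lists (4284 genes at an unadjusted p below 0.05, and 14 members), and with the crossed replicate block, added after the data were seen because deviations of same-numbered arrays correlated at -0.13, again 0. With any 1 array left out, counts of calls were 0 to 0 for each list and direction, with 3496 to 4546 genes and 10 to 14 members at an unadjusted p below 0.05, so these fits, with 1 residual degree of freedom, bear on signs alone.

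Signs turned among members that did not pass. They did so with cyclic loess for AHCTF1 (0.00329), NUP133 (0.00680), NUP214 (0.000927), NUP42 (0.0166) and NUP43 (0.00106), with median centring for SEC13 (-0.0130), and with the mean of all probe sets for AHCTF1 (0.0643), NUP214 (0.249), NUP37 (-0.0468), NUP50 (-0.134), NUP88 (-0.0302) and TPR (-0.162). With 1 array left out, the range crossed 0 for AHCTF1 (-0.106 to 0.0556), NUP133 (-0.0892 to 0.0452), NUP210P1 (-0.0516 to 0.302), NUP214 (-0.111 to 0.0844), NUP42 (-0.0323 to 0.0118), NUP43 (-0.102 to 0.0526), NUP54 (-0.0306 to 0.0837), POM121 (-0.0917 to 0.0616) and SEC13 (-0.0614 to 0.0639).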
